A study of Drosophila melanogaster with 4 samples.

Results

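The genes described here encode parts of the light response of the fly photoreceptor and the enzyme that makes its transmitter. They are inaD, inaC, chp, Arr1, Arr2, ninaE, norpA, trp, trpl and Hdc, 10 genes chosen by name with earlier results of these data known. A clone was taken as a member if the platform annotation gave its spots a single gene symbol and that gene was on this list. Of the 10 genes, 8 had a clone on the array, and 7 of these clones had a value on at least 1 array. They stand among 6347 of 13824 clones (called features below) with a value. Arr2 had a clone with no value on any array, and no spot was named for ninaE or norpA in the annotation used here.

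RNA came from heads of unmated Oregon-R wild type males, 10 to 11 days old, kept at 30 flies per vial. For 3 days they were given either food with 3.48 mg/ml of ethosuximide, a drug against absence seizures that blocks T-type calcium channels, or normal food. Each of 4 spotted cDNA arrays compared a pool of heads from drug-fed flies with a separate pool from flies on normal food, so each array was 1 biological replicate. The drug sample carried Cy5 on arrays 1 and 2 and Cy3 on arrays 3 and 4. All flies were of 1 sex and 1 strain, and a whole head holds the compound eyes together with brain, glia, fat body and muscle. Because heads were pooled, fewer photoreceptors and less RNA per photoreceptor cannot be told apart.

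In fly photoreceptors, light turns rhodopsin (ninaE encodes the main one) into its active form, which acts through a Gq protein on the phospholipase C encoded by norpA and opens the calcium-permeable channels TRP and TRPL. The PDZ scaffold protein INAD holds the phospholipase, the eye protein kinase C (inaC) and TRP together, and the arrestins Arr1 and Arr2 bind active rhodopsin and end its signal. All of this takes place in the rhabdomere, a stack of microvilli whose membranes carry chaoptin (chp), an adhesion protein. Photoreceptors signal to the brain with histamine, which histidine decarboxylase (Hdc) makes from histidine.

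The values are log2 ratios of drug over normal food, with the median of the tested features on each array set to 0. The deposited columns were not centred alike: before centring, the medians of the tested features were 0.74, 0.16, 0.24 and 0.63 on arrays 1 to 4. The log base was assumed to be 2, and the direction is unsettled. Columns were read as Cy5 over Cy3, so that arrays 3 and 4 needed a change of sign, but the numerator is not stated in the sources used here. If it were Cy3, every sign below would turn. In the reading called the other reading here, the authors would have deposited arrays 3 and 4 as drug over normal food, and only the signs on these arrays would turn.

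None of the 6 member clones with values on at least 3 arrays passed the test for a difference between drug and normal food. Under the reading used here, chp, inaD and inaC were below 0 on every array that measured them, Arr1 and Hdc were above 0 on 3 of 4 arrays, and trpl was below 0 on 3 of 4. The mean log2 ratios ran from -0.45 for chp to 0.26 for Arr1, that is, from 0.732-fold to 1.20-fold. In limma's one-class fit of 980 features 14 passed at a Benjamini-Hochberg adjusted p under 0.05, which is 1.43% of them, 12 higher and 2 lower. Without centring the split was 5 higher and 0 lower, with 0 of the 6 member clones among them. At an unadjusted p under 0.05 limma marked 1 of the 6 member clones, chp, against 119 of 980 features (12.1%). Without moderation of the variances 0 of the 6 passed and 1, inaC, had an unadjusted p under 0.05, against 105 of 980 features (10.7%).

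**Figure D1:**
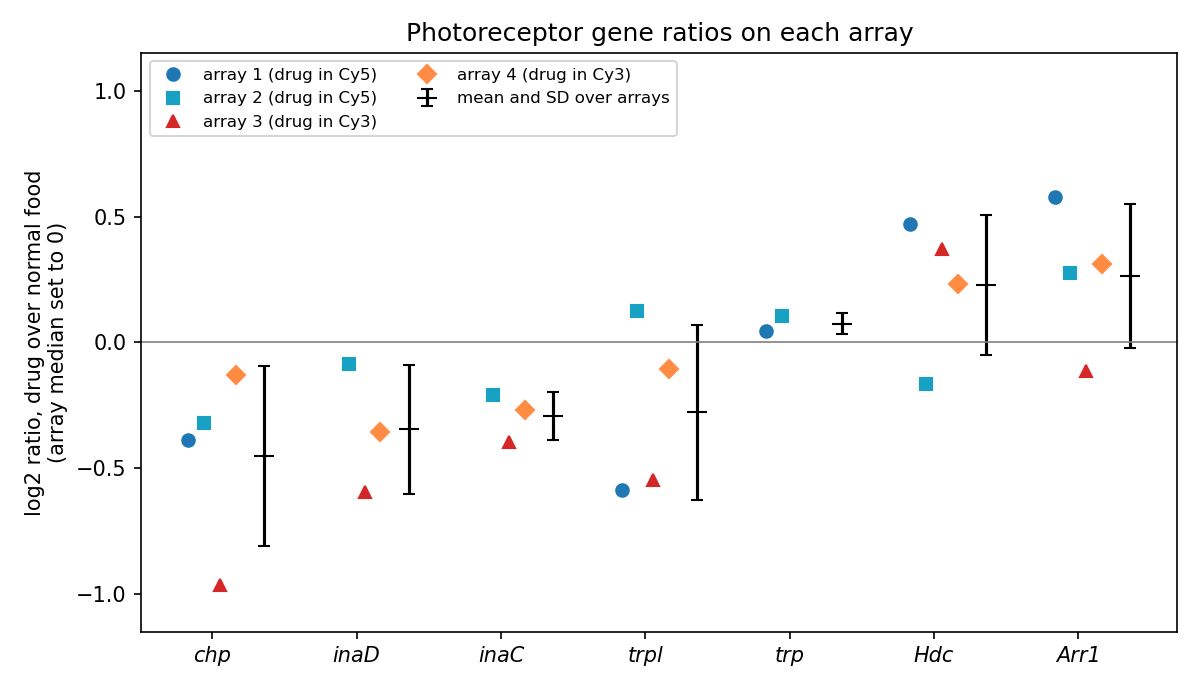
Centred log2 ratio of drug over normal food (y axis) for the 7 member clones with a value (x axis), 1 point per array, circles and squares for arrays with the drug in Cy5, triangles and diamonds for arrays with it in Cy3. Bars give the mean and SD over arrays; chp, inaD and inaC lie below 0 on every array that measured them, and array 3 holds the lowest value of each of these.

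The member with the lowest mean was chp. Its centred log2 ratios were -0.39, -0.32, -0.96 and -0.13 on arrays 1 to 4, so all were below 0 and array 3 lay furthest down. Of the 366 features measured on all 4 arrays, 40 (10.9%) were likewise below 0 on each. The mean for chp was -0.45 ± 0.36 (SD, n = 4), with a 95% interval from limma of -0.79 to -0.11 and an adjusted p of 0.282 (unadjusted p = 0.0152). By its unadjusted p the clone ranked 53rd and by its mean 26th from the lowest of 980, and by its mean under the other reading 703rd from the lowest. The exact sign-flip permutation test over the 4 arrays gave a two-sided p of 0.125, the smallest that 4 arrays allow. Ranked among the tested features of each array, which no centring affects, chp stood at percentiles 11.9, 14.9, 0.735 and 32.4 on arrays 1 to 4. Under the other reading these percentiles were 99.3 and 67.6 on arrays 3 and 4 and did not change on arrays 1 and 2. All 8 of its spots, 2 on each array, were below 0, from -1.11 to -0.0245. Without array 3 the mean was -0.28, and the other arrays left out in turn gave means down to -0.56.

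Both measured partners of the INAD complex other than the channel were below 0 on the 3 arrays that measured them. The scaffold gene inaD was at -0.085, -0.60 and -0.36 on arrays 2, 3 and 4, with little on array 2 and most on array 3. Its mean was -0.35 ± 0.26 (SD, n = 3; limma 95% interval -0.70 to 0.0105, adjusted p = 0.419), and without array 3 it was -0.22. The kinase gene inaC was at -0.21, -0.40 and -0.27 on the same arrays. Its mean was -0.29 ± 0.10 (SD, n = 3; limma 95% interval -0.61 to 0.030, adjusted p = 0.437), and its spread over arrays was the smallest of the members measured on at least 3 arrays. Among 614 features measured on exactly 3 arrays, 115 (18.7%) were below 0 on each. Within an array, inaD minus inaC was 0.12, -0.20 and -0.087, a mean of -0.055 ± 0.16 (SD, n = 3) with an exact sign-flip p of 0.75, where 3 arrays allow 0.25 at the least. All 6 spots of each gene were below 0. Neither clone had a value on array 1, which measured the most features (5095) and 90.3% of the tested ones. Their means are therefore not balanced for the dye, with the drug in Cy5 on array 2 alone and in Cy3 on arrays 3 and 4. In a limma fit with a term for the dye, the drug means were -0.28 for inaD and -0.27 for inaC.

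The light-gated channels were less uniform. For trpl the centred log2 ratios were -0.59, 0.13, -0.55 and -0.10 on arrays 1 to 4, so arrays 1 and 3 were low and array 2 was above 0. The mean was -0.28 ± 0.35 (SD, n = 4; limma 95% interval -0.61 to 0.0585, adjusted p = 0.461). Its 2 spots differed by 1.08 on array 1 (-0.0475 and -1.13) and by 0.56 on array 2, where they lay on both sides of 0 (0.41 and -0.16). Both differences were under the 95th percentile of spot differences on their array, 1.18 and 0.938. Over all clones with both spots measured, the spots correlated at r = 0.39 on array 1, against 0.61 to 0.79 on the other arrays. From the first spots alone, an alternative chosen after seeing the data, the mean for trpl was -0.12, and from the second spots -0.44. Without array 1 it was -0.17. The gene trp, which encodes the major channel, had values on arrays 1 and 2 alone, both with the drug in Cy5. They were 0.047 and 0.10, near the middle of these arrays at percentiles 55.5 and 64.6, and no test was made. On array 1 trp minus trpl was 0.64, and on array 2 it was -0.022.

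Arr1, an arrestin of rhodopsin, had the highest mean of the members. Its centred log2 ratios were 0.58, 0.28, -0.11 and 0.31 on arrays 1 to 4, above 0 on all but array 3. The mean was 0.26 ± 0.28 (SD, n = 4; limma 95% interval -0.048 to 0.58, adjusted p = 0.461), and without array 1 it was 0.16. On array 3 its 2 spots stood at 0.56 and -0.79, a difference of 1.35. The 95th percentile of such differences on that array was 0.671, so the sign of Arr1 on array 3 depended on the spot. With 1 spot of each pair in place of the mean of both, the mean for Arr1 was 0.34 from the first spots and 0.19 from the second.

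Hdc, the histamine-producing enzyme, was at 0.47, -0.16, 0.37 and 0.23 on arrays 1 to 4, with array 2 alone below 0. The mean was 0.23 ± 0.28 (SD, n = 4; limma 95% interval -0.082 to 0.54, adjusted p = 0.506). Without array 1 it was 0.15 and without array 2 it was 0.36. Its spots on array 4 differed by 0.718, at 0.59 and -0.13, above the 95th percentile of that array (0.620). From the first spots the mean was 0.37 and from the second 0.081.

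**Figure D2:**
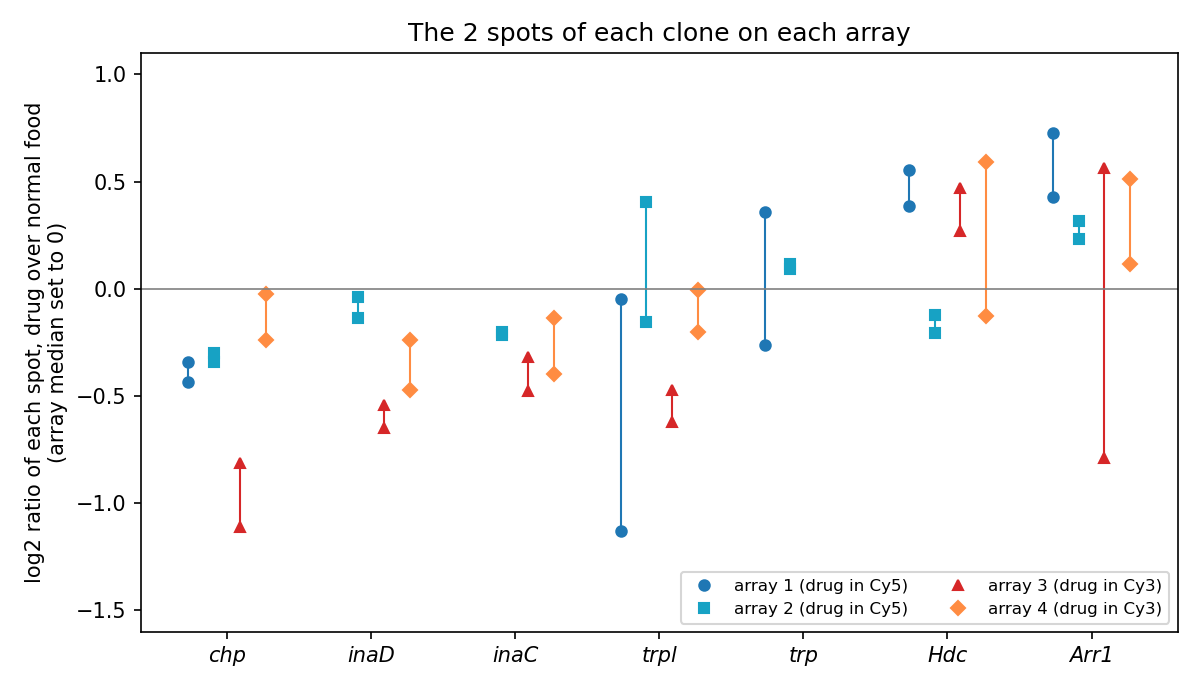
Centred log2 ratio of each of the 2 spots of a clone (y axis) for the 7 member clones (x axis), with a line joining the spots of 1 array. The spots of chp, inaD and inaC all lie below 0, with at most 0.298 between those of a pair, while the pairs of Arr1 on array 3 and trpl on array 1 are spread by 1.35 and 1.08.

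From the lowest mean up the members ran chp, inaD, inaC, trpl, trp, Hdc and Arr1. The means of inaD and inaC are not balanced for the dye, and with a dye term trpl (-0.278) was lower than inaC (-0.270). Under the other reading the order was Hdc, trpl, trp, chp, inaC, Arr1 and inaD. The limma intervals of neighbours in the first order overlapped wherever both had one. That of chp, which ended at -0.109, did not reach those of Hdc and Arr1, which began at -0.082 and -0.048. This comparison of intervals is not a test of a difference between the genes. Differences within an array do not depend on how the arrays are centred. From the means of both spots, Arr1 minus inaD was 0.36, 0.48 and 0.67 on arrays 2, 3 and 4, with a mean of 0.50 ± 0.15 (SD, n = 3). Its sign on array 3 depended on the spot of Arr1, since the second, at -0.79, lay below both inaD spots (-0.54 and -0.65). The exact sign-flip p of 0.25 is the smallest that 3 arrays allow, and adjusted over the 2 pairs tested it was 0.5. Arr1 minus chp, a pair picked after its values were seen and therefore not tested, was 0.97, 0.60, 0.85 and 0.44 on arrays 1 to 4, with a mean of 0.71 ± 0.24 (SD, n = 4). On array 3 the second spots of Arr1 and chp lay close together, at -0.79 and -0.81. Under the other reading Arr1 minus inaD and Arr1 minus chp went both ways over the arrays, with means of -0.26 ± 0.55 (SD, n = 3) and 0.067 ± 0.85 (SD, n = 4).

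As a set, the 6 tested clones had a median log2 ratio of -0.28, with 4 below 0 and 2 above, beside a median of 0.0037 and 48.6% below 0 over all 980 features. By array, the median of the member clones measured there was 0.047 on array 1 (5 clones), -0.085 on array 2 (7 clones), -0.47 on array 3 (6 clones) and -0.12 on array 4 (6 clones). Array 3 had the lowest of these medians, with 5 of 6 clones below 0, but array 1 lacks inaD and inaC, so the medians are over different clones. Without array 3 the median of the 6 tested clones was -0.20. For the 4 clones measured on every array alone, the median of the means was -0.0254.

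Each dye orientation gave its own value. On arrays 1 and 2, with the drug in Cy5, the means were -0.35 for chp, -0.23 for trpl, 0.15 for Hdc and 0.43 for Arr1. On arrays 3 and 4, with the drug in Cy3, they were -0.55, -0.32, 0.30 and 0.10. For inaD the value on array 2 was -0.085 and the mean on arrays 3 and 4 was -0.48, and for inaC these were -0.21 and -0.33. Under the reading used here these values had the same sign in both orientations for each of the 6 clones. The share of all tested features that do so was not counted. With the drug in Cy5, inaD and inaC had a value on array 2 alone. The Arr1 mean on arrays 3 and 4 averages values on both sides of 0, -0.11 and 0.31. Over the tested features, however, arrays of unlike orientation were little alike under this reading, with Pearson r from 0.05 to 0.24. Within an orientation r was 0.52 for arrays 1 and 2 and 0.42 for arrays 3 and 4. In limma's fit with a dye term, 0 of the 6 member clones had a dye effect past the test, against 2 of 980 features (0.204%). Its unadjusted p was under 0.05 for 0 of the 6, against 138 features (14.1%). Their log2 dye effects lay between -0.0745 for Hdc and 0.20 for inaD, with adjusted p from 0.551 to 0.918.

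The other reading of the columns exchanges drug and dye effects, and for clones on all 4 arrays its means equal the dye effects. The members' centred means were then 0.096 ± 0.62 for chp (SD, n = 4), 0.29 ± 0.34 for inaD (SD, n = 3), 0.15 ± 0.32 for inaC (SD, n = 3), 0.0466 ± 0.47 for trpl (SD, n = 4), -0.0745 ± 0.37 for Hdc (SD, n = 4) and 0.16 ± 0.37 for Arr1 (SD, n = 4). For inaD and inaC, which lack array 1, these means are not their dye effects (0.195 and 0.062). Arr1 alone of the 6 kept the sign of its mean. None passed in limma's test, with adjusted p from 0.747 to 0.972, and 0 of 980 features did (86, or 8.78%, had an unadjusted p under 0.05). The SD over arrays was larger under the other reading for each of the 6. This follows from the smaller size of each mean, since only signs turn, and cannot tell the readings apart.

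**Figure D3:**
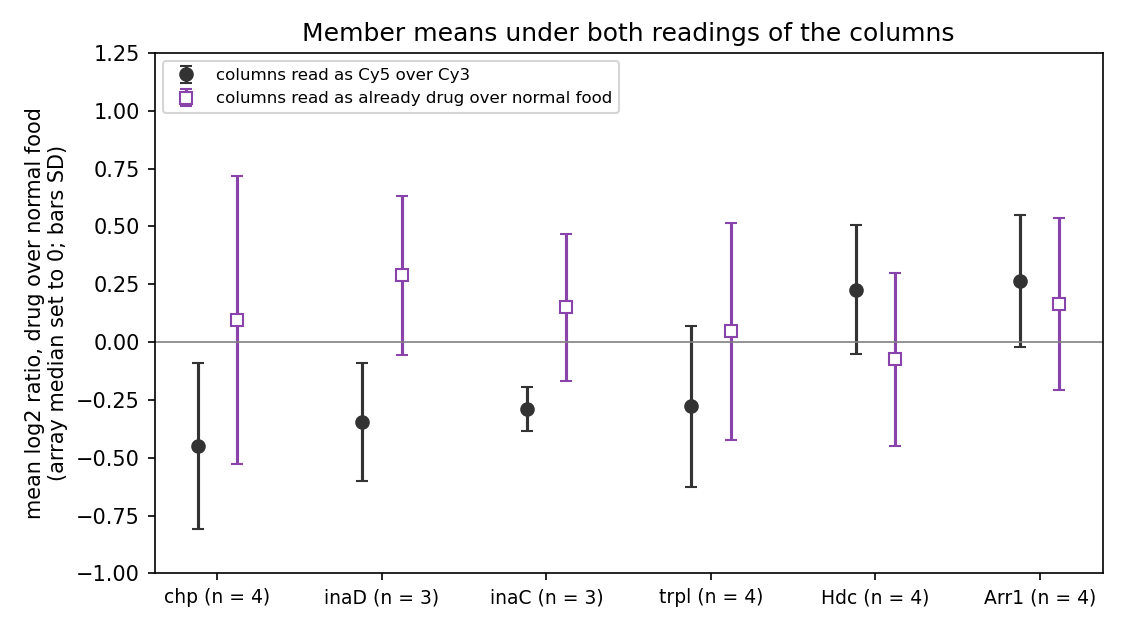
Mean centred log2 ratio with SD over arrays (y axis) for the 6 tested member clones (x axis, with the number of arrays), under the reading of the columns as Cy5 over Cy3 (filled circles) and as already drug over normal food (open squares). The means of chp, inaD, inaC, trpl and Hdc change sign between the readings and that of Arr1 does not.

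Further genes of phototransduction, photoreceptor structure and histamine handling were counted from lists of 64 genes with a current symbol, put together with earlier results known. Of these, 31 had a clone on the array, 25 had a value and 6 were measured on at least 3 arrays. In limma's test 0 of the 6 passed (lowest adjusted p = 0.450), and 0 had an unadjusted p under 0.05 with or without moderation. Their median was -0.0039, with 3 below 0. The lowest was rdgC, whose product removes phosphate from rhodopsin, at -0.34, -0.39, -0.23 and -0.011 on arrays 1 to 4, a mean of -0.24 ± 0.17 (SD, n = 4). It was below 0 on every array, as chp was.

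The retinophilin gene rtp was at 0.070 ± 0.15 (SD, n = 4) and the phosphatidylinositol synthase gene Pis at -0.036 ± 0.19 (SD, n = 4). Rab3, a synaptic vesicle GTPase gene that is not particular to photoreceptors, was at -0.11 ± 0.21 (SD, n = 3). Xport-A, which encodes a chaperone for TRP and rhodopsin, was at 0.028 ± 0.36 (SD, n = 3). These means lay within the spread of their own arrays, and none stood as far from 0 as the mean of any member clone tested. The mean of rdgC, -0.24, did stand further from 0 than that of the member Hdc, 0.23. A clone of Galphaq, the G protein that couples rhodopsin to the phospholipase, was at 0.060 ± 0.21 (SD, n = 3). A second Galphaq clone, on arrays 1 and 2, was at 0.0925 and -0.64, so the clones of this gene did not give 1 value.

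With values on only 2 arrays, a clone of the sodium/calcium exchanger gene Nckx30C was at 0.58 and 0.46 on arrays 2 and 3. Its mean was 0.52, or 0.064 under the other reading. A second Nckx30C clone had a value on array 1 alone, 0.18. The sodium pump subunit gene nrv3, also on 2 arrays, was at -0.46 and -0.32 on arrays 1 and 4, a mean of -0.39, or -0.071 under the other reading. Of the genes for histamine recycling, ebony (e) and tan (t) had 1 value each, -0.071 on array 1 and -0.41 on array 4. The transporter gene ine had 2 clones, each with a value on array 1 alone, at 0.35 and 0.59. The 4 histamine and lamina genes with a value were measured on too few arrays for a test, so Hdc was the only gene of histamine handling tested.

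**Figure D4:**
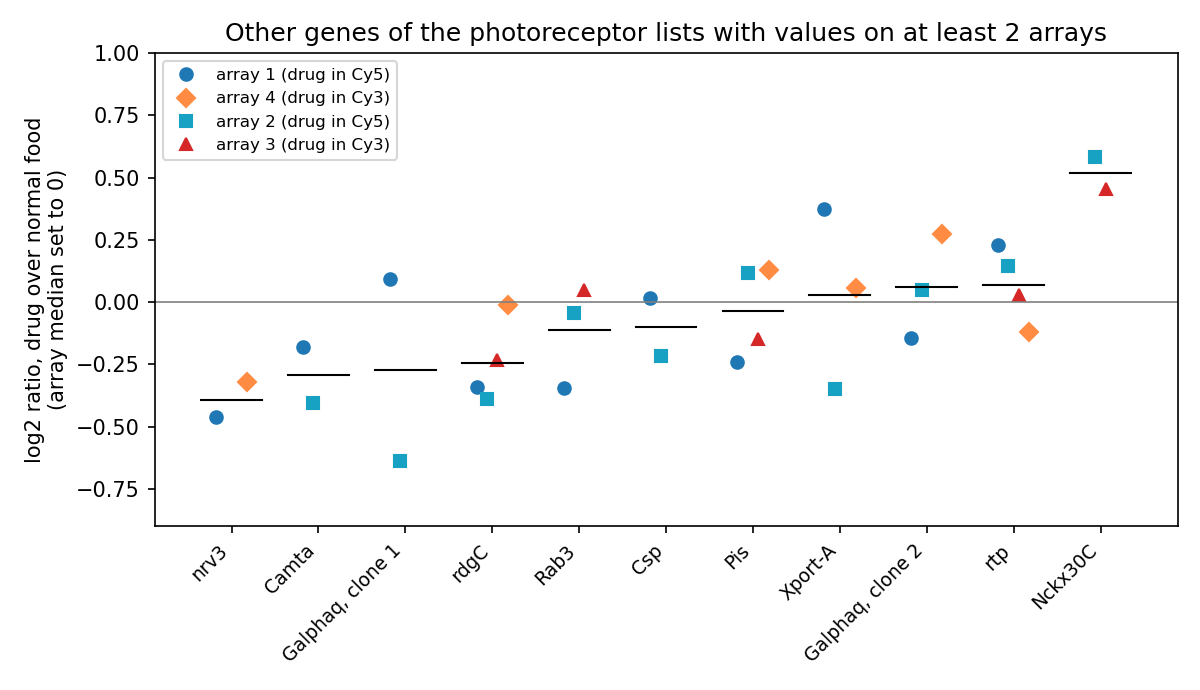
Centred log2 ratio (y axis) of the other photoreceptor list clones with values on at least 2 arrays (x axis), 1 point per array and a line at each mean. Most clones have points on both sides of 0; rdgC, nrv3 and Camta lie below 0 on every array that measured them and Nckx30C above.

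Markers of other tissues of the head were set beside these values. For muscle, 7 of 20 marker genes had a value and 3 were tested, all 3 below 0, with a median of -0.21 (from -0.43 for Act88F to -0.13 for Act79B) that was 0.24 under the other reading. For fat body, 5 tested clones lay between 0.071 and 0.40, with a median of 0.12 that was -0.13 under the other reading. Gs2, the 1 tested of 5 glial genes with a value, was at -0.35 (-0.16 under the other reading). Pu, the 1 tested of 5 eye pigment genes with a value, was at -0.20 (-0.38 under the other reading). The untested clones of the muscle, fat body, glial and eye pigment lists had values on both sides of 0. For muscle they ran from -0.76 for TpnC4 to 0.28 for TpnC73F, and for fat body from -0.335 for Fbp2 to 0.19 for Obp44a. The tested neuronal clones were at 0.12 for Gad1 and 0.17 for Sap47, with a median of 0.15 (0.089 under the other reading). A second Gad1 clone, on array 1 alone, was at -0.18, while the untested Ddc and nSyb were above 0. The testis marker ocn, the 1 tested of 2 male reproductive genes with a value, was at 0.44 ± 0.27 (SD, n = 3), or -0.060 under the other reading. The untested gene of this list, Acp53Ea, went the other way, at -1.635 on array 1 alone. None of the tested marker clones passed in limma's test, and none of the 4 gut marker genes with a clone had a value. At an unadjusted p under 0.05 limma marked 1 of 3 tested muscle clones (Act88F), 1 of 5 of fat body (FASN1), ocn and Gs2. It marked 0 of the tested neuronal and eye pigment clones, beside 12.1% of all 980 features. The part of tissue makeup in the members' values was not tested, and ratios give no level by which the share of eye tissue could be read. Spots of 7 of the 8 member clones passed the authors' filters on at least 1 array (87.5%) and 6 of 8 on at least 3 (75%), beside 53.5% and 6.99% of the 7558 features with 1 gene name. Because the members were chosen with earlier results of these data known, this gap cannot be read as a trait of these genes.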

How the data were processed

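The authors deposited 1 column of ratio-normalized values per array, per the labels, and these were read as log2 ratios. Their log base, numerator and centring are not stated. Per the series' design text, the authors quantified slides with GenePix Pro 6.0 and normalized ratios in Acuity 4.0. They kept unflagged spots with signal-to-noise from 3 up and a regression R2 from 0.6 up, and used one-class SAM 2.21, which was not run here. A genome build is not given in the sources used here.

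All 27648 spots were averaged in neighbouring pairs into 13824 features, since all 7558 pairs with 1 gene symbol on both spots shared it. Symbols were updated through Entrez numbers with RefSeq's table for Release 6 (14894 of 15116 spots matched). Arrays 1 to 4 measured 5095, 3169, 1101 and 812 features, and the number of arrays limits precision. Each array was centred on its median over the 980 features measured on at least 3 arrays. The R package limma (version 3.58.1, under R 4.3.3) was then fitted (eBayes, one-class, two-sided, Benjamini-Hochberg, threshold 0.05), and the fit was tested on simulated data. Intervals are limma's at 95%.

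Members and lists were chosen with earlier results of these data known. Every member clone with a value was named. Of the other photoreceptor lists, up to 8 genes were named by the number of arrays and then the size of the mean. The tissue markers, ebony, tan, ine, Camta and the second clones of Galphaq and Nckx30C were named after their values were seen. Alternatives changed the centring, the reading of the columns, the filter on arrays, the moderation, the dye term, the spots and the arrays included.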

Additional observations from a re-analysis of the deposited data

How the results depend on the processing

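Under each alternative 0 member clones passed the test, and the adjusted p of the 6 tested lay between 0.0940 (Arr1, other reading and no centring) and 0.994 (no centring). The count of all features passing for the drug was 14. It was 5 without centring, 0 under the other reading, 32 under the other reading and no centring, 0 with values on at least 2 arrays, 28 with a dye coefficient, 0 without moderation and 7 from the first spots alone. Leaving out 1 array gave 5 to 23. The members' median of -0.28 was 0.12 under the other reading, 0.52 under the other reading and no centring, and -0.0254 with values on all 4 arrays, where inaD and inaC drop out; leaving out 1 array gave -0.37 to -0.20. Signs of members reversed under the readings of the columns alone. The other reading gave 0.096 for chp, 0.29 for inaD, 0.15 for inaC, 0.0466 for trpl and -0.0745 for Hdc. With no centring as well it gave 0.54, 0.63, 0.50 and 0.49 for the first 4, beside a median of 0.40 over all features, so the column offsets enter these values. Leaving out 1 array reversed no member. The count for the dye, 2, was 31 without centring, 1 with values on all 4 arrays and 0 to 14 with 1 array left out. Without centring, the means were -0.44 for chp, -0.58 for inaD and -0.53 for inaC. All tested features had both spots measured, so that requirement changed nothing. For each other change above the cause was not tested. Each array holds 1 drug and 1 normal food pool, so the one-class test of its ratios is already paired, and no further pairing was available.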

Other observations

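Among 8 sets of 4 arrays (chp, trpl, Hdc and Arr1, centred and deposited values), no array stood apart from the other arrays by Dixon's test.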
